A study of Homo sapiens with 9 samples.

Results

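The proteasome genes described here are the genes whose symbol begins with PSM followed by a class letter from A to G and a number, with 1 further subunit gene left out by the rule that chose them. They were 46 of the 32378 genes in the deposited table: 7 core alpha genes (PSMA), 11 core beta genes (PSMB), 6 ATPase genes (PSMC), 13 genes of the non-ATPase class (PSMD), 4 activator genes (PSME), the inhibitor PSMF1 and 4 assembly chaperone genes (PSMG). The filter on low counts kept 45 of them among the 16450 genes tested. PSMB11, the core subunit of the thymus, had a total of 1 count over the 9 libraries and was not tested. PSMA8, the testis counterpart of PSMA7, also fits the rule on symbols but had no row in the deposited table.

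RNA was sequenced from SKOV3, an established human ovarian cancer line with an amplified ERBB2 gene, grown in RPMI medium with serum. Each of 3 groups had 3 libraries: Carbo+COM33 (carboplatin with COM33), Carbo (carboplatin, a platinum drug that crosslinks DNA) and control. What COM33 is was taken from no source beyond its code name; doses and times of treatment are not in the labels, and no group received COM33 alone, so a difference of Carbo+COM33 from control holds both agents. The labels do not say whether the replicates are separate cultures, so the p-values measure the spread between these libraries, which may be technical.

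The proteasome degrades proteins that carry ubiquitin chains. Its barrel-shaped core has rings of alpha subunits that form the gate and rings of beta subunits, some of which cut peptide bonds. A regulatory particle caps the barrel: its ATPases unfold the substrate and thread it in, while the non-ATPase subunits bind ubiquitin, remove it and hold the particle together. Activators of the PSME class can cap the core instead, interferon-induced beta subunits can replace the standard catalytic ones, and cells that run short of proteasome activity raise the genes of the family together through the transcription factor NFE2L1.

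Library totals ran from 13851760 to 15533668 counts. The 8 markers of the line all had counts and summed to 2312 to 2778 CPM (counts scaled to a common library size) in Carbo+COM33 libraries, 3282 to 3712 CPM in Carbo libraries and 3386 to 3716 CPM in control libraries, with ERBB2 at 1485 CPM or more in each library. Of 8 blood and immune markers, 7 were in the table and all 7 had a count somewhere; they summed to 0.349 to 0.97 CPM, 0.875 to 1.34 CPM and 0.763 to 1.53 CPM in the same groups. All 8 markers of endothelium, liver, muscle and nerve had a count, with sums of 1.18 to 1.4 CPM, 0.637 to 1.82 CPM and 1.25 to 1.8 CPM. The change of a gene's level with its GC content differed between libraries of 1 group and between groups. Log2 CPM changed by -0.109, -0.0731 and 0.0798 per 10 points of GC in Carbo+COM33 libraries 1 to 3, so that library 3 stood apart. It changed by -0.0106, -0.0376 and -0.137 in Carbo libraries and by 0.122, 0.119 and 0.0478 in control libraries. The trend was thus negative in each Carbo library and positive in each control library. Between these groups it cannot be told apart from the treatment. A gene is called when its p from edgeR's quasi-likelihood test, adjusted by Benjamini and Hochberg's method over the 16450 genes, lies under 0.05. The 3 comparisons share libraries, so their values stand side by side and are not independent.

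The promoters of the 3 genes that were called by the main edgeR test, without a replicate block, are shown first. For 39 of the 45 tested genes RefSeq gave at least 1 window from 250 bases before to 50 bases after a start, and the 3 windows below are on GRCh38.p14, each read 5′ to 3′ on the strand of its gene. The window of PSMD2 is chr3:184298991-184299290 (plus strand), that of PSMD8 is chr19:38374321-38374620 (plus strand) and that of PSMD5 is chr9:120842873-120843172 (minus strand). PSMD2 has a further window, at a later start, that held no match. Capitals mark matches to the 4 motifs searched, on either strand.
PSMD2: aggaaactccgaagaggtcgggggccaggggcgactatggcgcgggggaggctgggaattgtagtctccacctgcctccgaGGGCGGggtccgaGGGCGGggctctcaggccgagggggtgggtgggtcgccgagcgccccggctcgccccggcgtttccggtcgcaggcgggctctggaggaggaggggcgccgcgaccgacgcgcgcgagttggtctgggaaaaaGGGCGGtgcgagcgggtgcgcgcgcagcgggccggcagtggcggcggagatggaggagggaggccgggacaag
PSMD8: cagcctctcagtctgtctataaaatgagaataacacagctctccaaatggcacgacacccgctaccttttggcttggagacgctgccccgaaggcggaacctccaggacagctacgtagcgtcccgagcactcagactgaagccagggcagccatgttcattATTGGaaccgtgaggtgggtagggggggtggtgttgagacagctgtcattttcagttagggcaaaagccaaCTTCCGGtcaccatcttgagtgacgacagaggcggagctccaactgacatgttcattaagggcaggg
PSMD5: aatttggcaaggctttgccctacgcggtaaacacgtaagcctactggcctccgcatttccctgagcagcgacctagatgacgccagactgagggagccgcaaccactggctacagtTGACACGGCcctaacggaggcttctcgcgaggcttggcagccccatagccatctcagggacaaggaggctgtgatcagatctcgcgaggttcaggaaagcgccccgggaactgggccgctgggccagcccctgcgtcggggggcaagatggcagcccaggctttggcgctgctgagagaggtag

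In PSMD2 the capitals mark 3 GC boxes (GGGCGG). In PSMD8 they mark reverse matches to CCAAT and to the ETS-type motif CCGGAAG, and in PSMD5 a match to TGACNNNGC, the core of the antioxidant response element to which NFE2L1 and NFE2L2 bind with small MAF proteins. The motifs were chosen after the windows had been read, may overlap a match to another motif, and were searched on both strands. GGGCGG was in 70.8% of the 48 proteasome windows and in 45% of all 35116 windows of the same length. TGACNNNGC was in 29.2% of the proteasome windows and in 13.3% of all windows, and CCGGAAG in 29.2% and 10.3%. CCAAT was in 37.5% of the proteasome windows and 34.6% of all windows. A match describes the letters only.

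Levels were compared between genes per length, in deposited FPKM (counts per exon length and library total). The exon length joins all annotated exons of a gene. The median over the 45 tested proteasome genes of the mean over 9 libraries was 22.9 FPKM, against 4.31 FPKM over all genes tested. PSMA7, a core alpha subunit, had the highest mean at 144 FPKM, followed by the catalytic subunit PSMB7 at 113 FPKM and PSMD2, the scaffold of the regulatory particle on which ubiquitin receptors and shuttle factors dock, at 79.0 FPKM. The lowest were PSMA2 at 0.37 FPKM, PSMA6 at 0.453 FPKM and PSMD9 at 0.755 FPKM, although PSMA2 and PSMA6 encode obligatory subunits of the same ring as PSMA7.

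These low values belong to genes that share sequence with a neighbour in the annotation. A protein-coding gene on the same strand covered 97.1% of the coding bases of PSMA2, 88.64% of PSMA1, 70.35% of PSMA6, 58.74% of PSMD9 and 58.31% of PSMB10. Their means ran from 0.37 to 3.86 FPKM, whereas the other 40 tested proteasome genes ran from 2.15 to 144 FPKM with a median of 28.9 FPKM. Such sharing of over 50% of coding bases was found for 11.1% of the tested proteasome genes and 3.08% of all genes tested. How the counting treated reads in shared exons is not given in the sources used here, so the levels of these 5 genes are uncertain. The table also held 13 pseudogenes named after members of the family, with at most 91 counts over the 9 libraries (PSMC1P1).

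**Figure D1:**
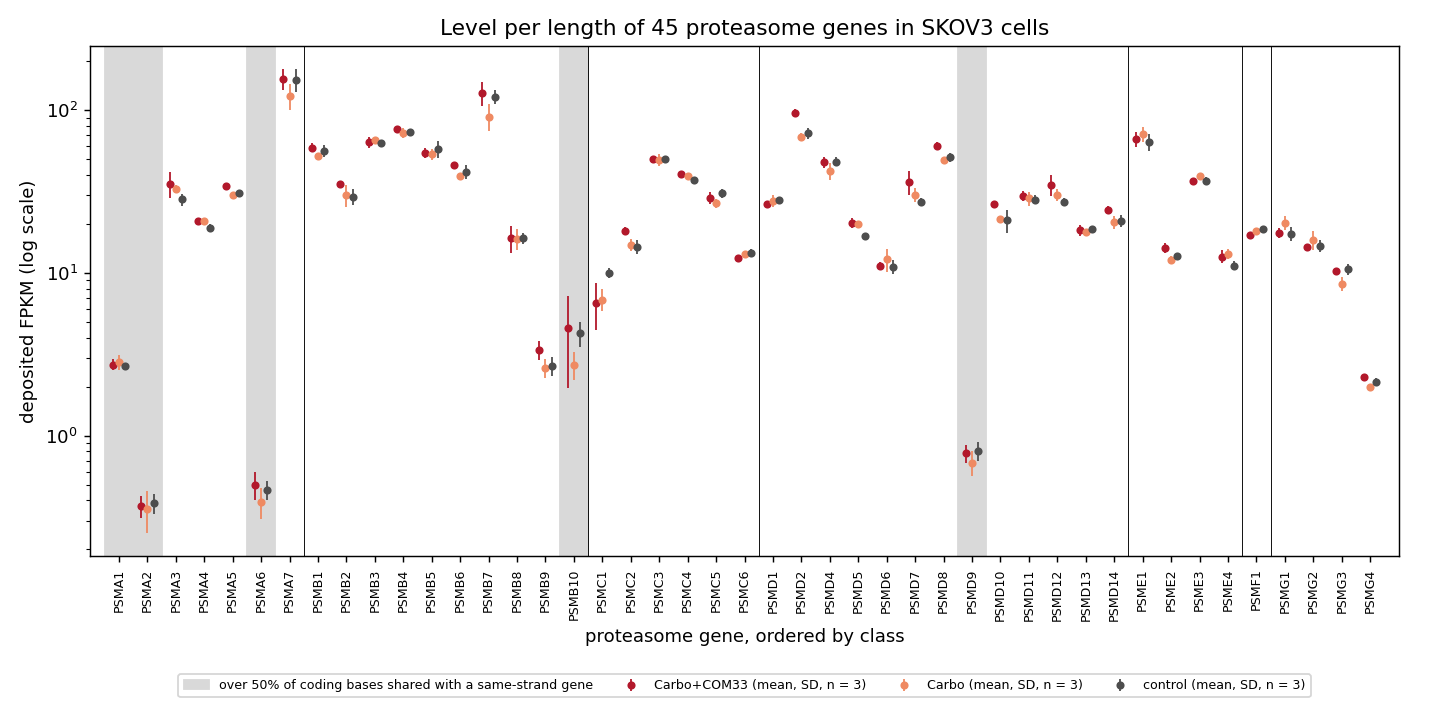
Deposited FPKM on a log axis for the 45 tested proteasome genes, ordered by class, as mean and SD of 3 libraries for Carbo+COM33, Carbo and control. Grey bands mark the 5 genes that share over 50% of their coding bases with a gene on the same strand, which hold the 3 lowest levels; PSMA7, PSMB7 and PSMD2 are the highest.

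The plot of levels by class shows that the groups lay close together beside the differences between genes. Without the genes that share coding bases, the class medians of mean FPKM were 55.2 FPKM for 9 beta genes, 32.0 FPKM for 4 alpha genes, 28.1 FPKM for 12 non-ATPase genes, 25.2 FPKM for the 4 activators, 22.4 FPKM for the 6 ATPases, 17.9 FPKM for PSMF1 and 12.4 FPKM for the 4 chaperones. The standard catalytic subunits were well above their interferon-induced counterparts, of which PSMB10 is among the genes with an uncertain level, as given above. PSMB5, with chymotrypsin-like activity, averaged 54.5 ± 3.91 FPKM in Carbo+COM33, 53.5 ± 3.89 FPKM in Carbo and 57.7 ± 6.96 FPKM in control libraries, and its counterpart PSMB8 averaged 16.3 ± 3.14 FPKM, 16.2 ± 2.28 FPKM and 16.3 ± 1.24 FPKM in the same groups (SD, n = 3 each).

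PSMB6, with caspase-like activity, averaged 45.7 ± 2.16 FPKM in Carbo+COM33, 39.5 ± 1.59 FPKM in Carbo and 41.9 ± 4.09 FPKM in control libraries, and its counterpart PSMB9 averaged 3.37 ± 0.467 FPKM, 2.62 ± 0.353 FPKM and 2.69 ± 0.357 FPKM. PSMB7, with trypsin-like activity, averaged 127 ± 21.6 FPKM in Carbo+COM33, 91.2 ± 17.2 FPKM in Carbo and 120.3 ± 11.9 FPKM in control libraries, and its counterpart PSMB10 averaged 4.59 ± 2.63 FPKM, 2.73 ± 0.543 FPKM and 4.26 ± 0.758 FPKM. As a ratio of FPKM within a library, PSMB8 over PSMB5 ran from 0.236 to 0.342 over the 9 libraries, PSMB9 over PSMB6 from 0.0563 to 0.0785, and PSMB10 over PSMB7 from 0.0228 to 0.0498. The lowest and the highest PSMB10 ratio were both in Carbo+COM33 libraries, replicates 2 and 3.

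Among the activators, PSME1 averaged 66.5 ± 7.31 FPKM in Carbo+COM33, 71.3 ± 7.66 FPKM in Carbo and 64.1 ± 7.64 FPKM in control libraries. Its partner in the same ring, PSME2, averaged 14.3 ± 1.03 FPKM, 12 ± 0.703 FPKM and 12.7 ± 0.479 FPKM. PSME3, the nuclear relative of both, averaged 36.5 ± 1.91 FPKM, 39.2 ± 2.02 FPKM and 36.9 ± 2.14 FPKM, and PSME4, the large single-chain activator, 12.6 ± 1.17 FPKM, 13.1 ± 0.92 FPKM and 11.1 ± 0.657 FPKM. PSME1 exceeded PSME2 in each library, by a ratio of FPKM of 4.28 to 5.03 in Carbo+COM33, 5.57 to 6.58 in Carbo and 4.32 to 5.5 in control libraries. The ratio depends on the exon length used, 1781 bases for PSME1 and 3582 bases for PSME2. Before division by length, mean CPM of PSME1 and PSME2 were 120.2 and 51.8 in Carbo+COM33, 126 and 42.8 in Carbo, and 114 and 45.3 in control libraries.

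The first comparison asks what COM33 adds to carboplatin, set by Carbo+COM33 against Carbo. PSMD2 and PSMD8 rose, no proteasome gene fell, and more of the genes lay above 0 than below. In bulk RNA, fewer cells of a kind and less RNA per cell cannot be told apart. The summed markers of the line were lower in the same Carbo+COM33 libraries, as given above. Among them ERBB2 had 1485 to 1800.5 CPM in Carbo+COM33 and 2239 to 2532 CPM in Carbo libraries. KRT7 had 116 to 153 CPM and 207 to 368 CPM in the same groups. The ranges of KRT8, KRT18, KRT19, EPCAM, MUC16 and WT1 overlapped between these groups. The part of the markers in these results was not tested. The 2 genes called are 2 of the 45 tested, where 4.96% of all genes were called in either direction, 2.43% up and 2.53% down. The median log2 fold change of the family was 0.126, against -0.006 over all genes tested, and 33 of 45 genes lay above 0, against 48.9% of all genes. In 14 of the 45 genes each Carbo+COM33 library exceeded each Carbo library and in 0 each was lower, against 11.7% and 11.9% of all genes. At an unadjusted edgeR p under 0.05 there were 17 proteasome genes, against 22.4% of all genes, and DESeq2 called 3 proteasome genes, PSMD2, PSMD8 and PSMB7, all up, where it called 4.02% of all genes up.

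PSMD2 (ENSG00000175166, chr3:184298709-184309054, plus strand) had 552, 496 and 548 CPM in Carbo+COM33 libraries 1 to 3, against 396, 347 and 374 CPM in Carbo libraries 1 to 3. All Carbo+COM33 libraries were above all Carbo libraries. The log2 fold change was 0.52 ± 0.0881 (SE), a 1.43-fold higher level, with edgeR's adjusted p = 0.00694. PSMD1, the other large scaffold subunit of the regulatory particle, had a log2 fold change of -0.05 ± 0.0857 with edgeR's adjusted p = 0.798. The ratio of PSMD2 over PSMD1 in FPKM was 3.81, 3.22 and 3.92 in Carbo+COM33 libraries, 2.72, 2.47 and 2.23 in Carbo libraries and 2.99, 2.47 and 2.36 in control libraries. The Carbo+COM33 libraries thus had the 3 highest ratios of the 9.

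PSMD8 (ENSG00000099341, chr19:38374536-38383824, plus strand), a lid subunit of the regulatory particle, had 203, 187 and 181 CPM in Carbo+COM33 libraries and 156, 150.2 and 149 CPM in Carbo libraries. The groups did not overlap. Its log2 fold change was 0.33 ± 0.079 with edgeR's adjusted p = 0.0349. PSMD2 and PSMD8 share no annotated exon bases with another gene.

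PSMB10 and PSMB7 did not pass, although the fold change of PSMB10 was the largest of the family and that of PSMB7 was above that of PSMD8. PSMB7 (chr9:124353466-124415444, minus strand) had 222, 198 and 273 CPM in Carbo+COM33 and 197, 148 and 141 CPM in Carbo libraries, with a log2 fold change of 0.51 ± 0.141 and edgeR's adjusted p = 0.058. Its groups did not overlap, and Carbo+COM33 library 3 was the highest. With GC and length offsets PSMB7 was called, with a log2 fold change of 0.47 and edgeR's adjusted p = 0.0438. That fit called 3 proteasome genes, PSMD2, PSMD8 and PSMB7, against 7.64% of all genes. PSMB10 (chr16:67934502-67937087, minus strand) had 7.07, 4.68 and 14.1 CPM in Carbo+COM33 and 5.52, 5.67 and 3.91 CPM in Carbo libraries, with a log2 fold change of 0.78 ± 0.328 and edgeR's adjusted p = 0.185. Its groups overlapped, and library 3 of Carbo+COM33 again stood far above the others: without it the log2 fold change of PSMB10 was 0.22 ± 0.252.

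**Figure D2:**
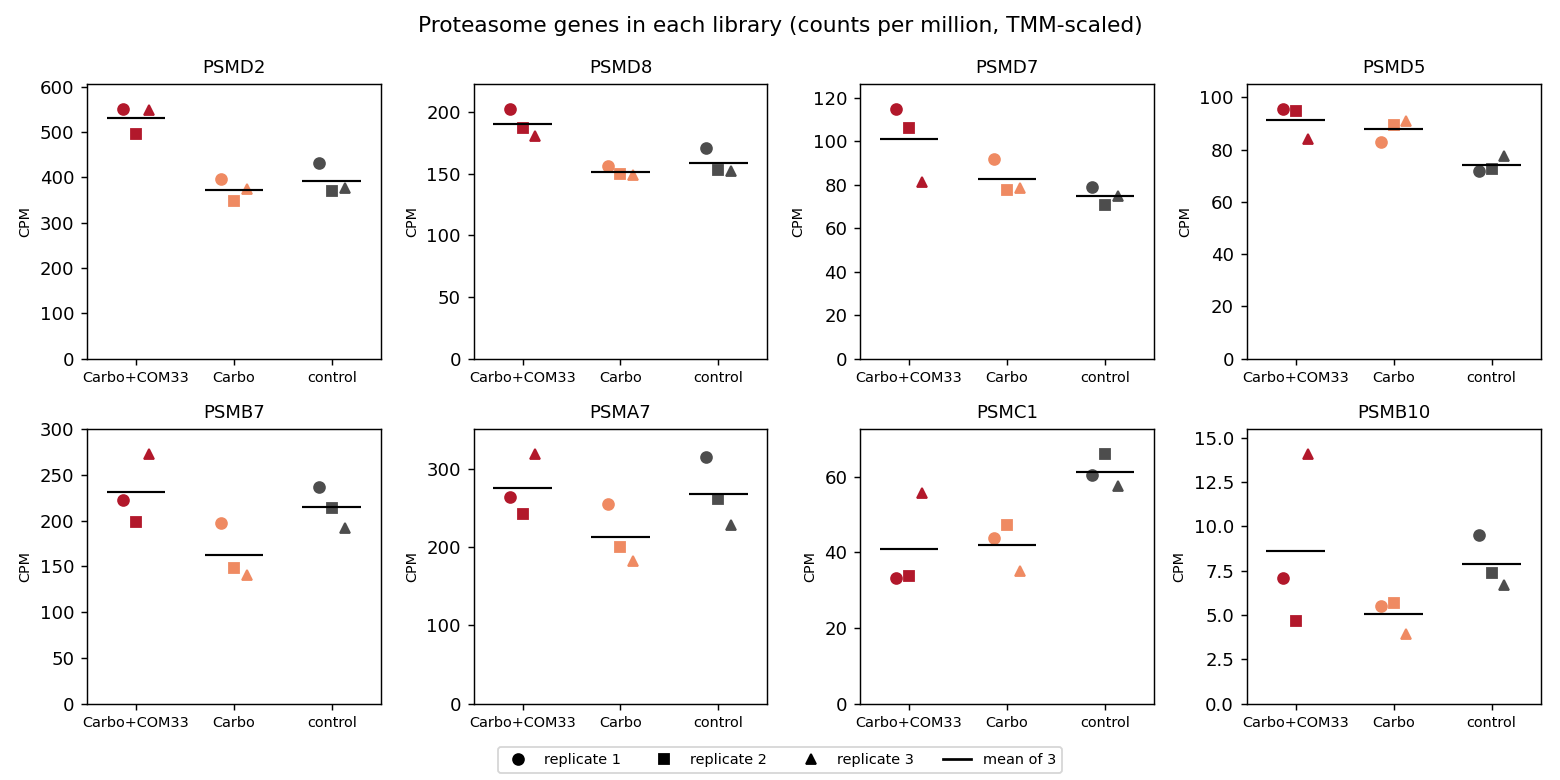
CPM in each library for 8 proteasome genes in Carbo+COM33, Carbo and control, with a marker shape for each replicate and a line at the mean of 3. PSMD2 at 496 CPM or more and PSMD8 at 181 CPM or more in Carbo+COM33 lie above all other libraries, while Carbo+COM33 replicate 3 parts from replicates 1 and 2 for PSMD7, PSMC1 and PSMB10.

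By class, the non-ATPase genes summed to 2169, 2015 and 2006 CPM in Carbo+COM33 libraries, 1828, 1657 and 1738 CPM in Carbo libraries and 1842, 1670.2 and 1722 CPM in control libraries. PSMD2 alone makes up a large share of these sums. Over all 46 genes the sums were 5238, 4938 and 5122 CPM in Carbo+COM33, 4663, 4354 and 4517 CPM in Carbo and 4842, 4477 and 4514 CPM in control libraries. As a share of all counts this is 0.488% to 0.514% in Carbo+COM33, 0.44% to 0.469% in Carbo and 0.452% to 0.482% in control libraries. The Carbo+COM33 libraries had the 3 highest sums in both cases, but not in any other class. For core alpha, core beta and ATPase genes, control library 1 had 742, 1025 and 572 CPM. Carbo+COM33 library 2 had less, at 717, 941 and 525 CPM. The highest sums of the activators and the chaperones were in Carbo library 3, at 534 and 151 CPM. PSMF1 was highest in control library 2.

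The class medians of the log2 fold change of Carbo+COM33 over Carbo were 0.223 for 10 beta genes, 0.217 for 13 non-ATPase genes, 0.126 for 7 alpha genes, 0.065 for 6 ATPases, 0.06 for 4 chaperones and -0.046 for 4 activators. None of the genes in the alpha, beta, ATPase, activator, inhibitor and chaperone classes was called. The chaperone class ran from -0.18 to 0.29, with PSMG1 and PSMG2 below 0 and PSMG3 and PSMG4 above 0. PSMF1, which binds the core and can inhibit it, had a log2 fold change of -0.06 ± 0.0748.

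Leaving out single libraries moved the count of calls in Carbo+COM33 against Carbo. Without Carbo replicate 1 there were 9 calls, all up (PSMA5, PSMA7, PSMB2, PSMB7, PSMC2, PSMD2, PSMD4, PSMD8 and PSMD14), against 7.75% of all genes called up. Without Carbo replicate 2 there were 0, with PSMD2 at an edgeR adjusted p = 0.0602 and 0.729% of all genes called. Without control replicate 1 there were 4, against 6.38% of all genes. PSMD2 was the 1 call without control replicate 2 (3.09% of all genes called), control replicate 3 (3.78%), Carbo replicate 3 (1.59%), Carbo+COM33 replicate 1 (1.42%) and Carbo+COM33 replicate 2 (1.45%). Without Carbo+COM33 replicate 3 there were 3, PSMD2, PSMD7 and PSMD8, against 2.97% of all genes. PSMD2 was called in 8 of the 9 fits that leave out a library and PSMD8 in 3 of 9.

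The second comparison sets Carbo+COM33 against control and so holds both agents. PSMD2 and PSMD5 rose, and 0 of the 45 genes fell; 6.29% of all genes were called, 3.2% up and 3.09% down. The median log2 fold change of the family was 0.097, against -0.014 over all genes, with 35 of 45 genes above 0, against 48.1% of all genes. Each Carbo+COM33 library exceeded each control library in 13 genes and was lower in 2, PSMC1 and PSMF1, where 14.3% and 14.4% of all genes did so. At an unadjusted edgeR p under 0.05 there were 15 proteasome genes, against 24% of all genes. With GC and length offsets the 2 genes called were PSMD2 (log2 fold change 0.51) and PSMD8 (0.34, edgeR's adjusted p = 0.0299), against 5.7% of all genes. PSMD5 had 0.22 with the offsets and was not called (edgeR's adjusted p = 0.0613).

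PSMD2 had 432, 369 and 377 CPM in control libraries, all below the Carbo+COM33 libraries given above. Its log2 fold change of Carbo+COM33 over control was 0.44 ± 0.088 with edgeR's adjusted p = 0.0155. PSMD5 (ENSG00000095261, chr9:120815496-120842984, minus strand), which despite its class name is a chaperone of the assembling regulatory particle, had 95.7, 94.6 and 84.0 CPM in Carbo+COM33 libraries and 72.0, 72.5 and 77.6 CPM in control libraries. The groups did not overlap. Its log2 fold change was 0.31 ± 0.0822 with edgeR's adjusted p = 0.0454.

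PSMC1 (chr14:90256495-90275429, plus strand), an ATPase that helps open the gate of the core, had 33.3, 33.7 and 55.6 CPM in Carbo+COM33 and 60.4, 66.1 and 57.6 CPM in control libraries. All Carbo+COM33 libraries were lower, library 3 only slightly. The log2 fold change was -0.58 ± 0.175 with edgeR's adjusted p = 0.0659. Exons of NRDE2 on the other strand cover 75.82% of the exon bases of PSMC1. NRDE2 also lay lower, with a log2 fold change of -0.23 ± 0.0902 and edgeR's adjusted p = 0.14. Reads of both genes cannot be told apart, since the strand setting is not given. PSMD7 (chr16:74296775-74306288, plus strand), the lid partner of the deubiquitinase PSMD14, had 115, 106 and 81.4 CPM in Carbo+COM33 and 79.0, 70.5 and 75.0 CPM in control libraries. Its groups did not overlap, again with library 3 nearest to control. Exons on the other strand cover 30.73% of its exon bases. The log2 fold change was 0.43 ± 0.119 with edgeR's adjusted p = 0.0513.

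The library that stood apart in GC, Carbo+COM33 replicate 3, had the value nearest to control for PSMD5, PSMC1 and PSMD7. Without it 9 proteasome genes were called, against 13.4% of all genes, 6.42% up and 7% down: PSMC1 fell (log2 fold change -0.87, edgeR's adjusted p = 0.00362), and PSMA3, PSMC2, PSMD2, PSMD5, PSMD7, PSMD8, PSMD12 and PSME4 rose, with PSMD7 at 0.56 (edgeR's adjusted p = 0.00637). Counts also moved without control replicate 1 (4 calls, and 6.63% of all genes), without Carbo replicate 1 (8 calls, and 11% of all genes) and without Carbo replicate 2 or Carbo+COM33 replicate 2 (1 call each, PSMD2, with 3.84% and 1.08% of all genes). There were none without control replicate 2, control replicate 3 or Carbo+COM33 replicate 1 (0 calls each, with 0.693%, 1.23% and 0.93% of all genes called). PSMD2 was called in 6 of the 9 fits that leave out a library, and PSMD5 in 3 of 9. DESeq2 called 8 proteasome genes, 7 up and 1 down, and 9.5% of all genes, 5.14% up and 4.36% down.

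**Figure D3:**
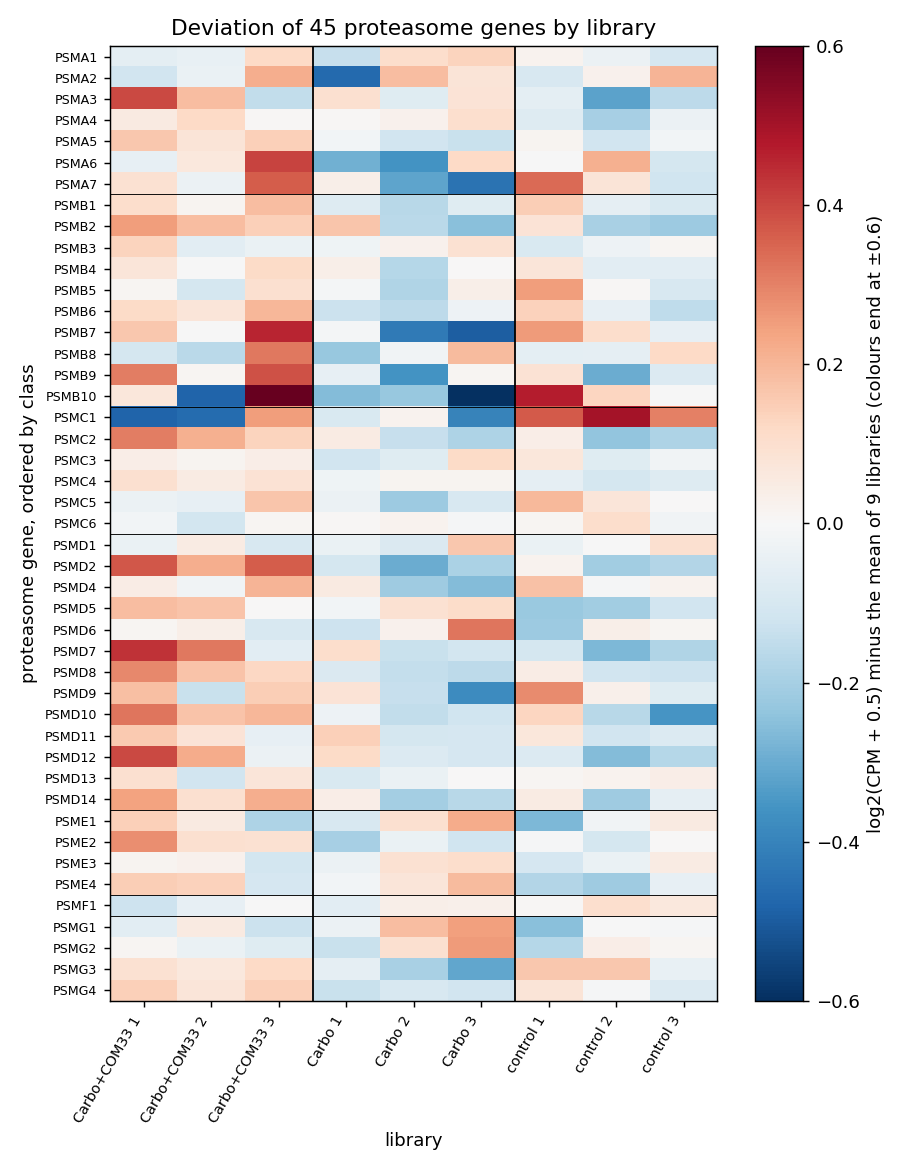
Log2(CPM + 0.5) of 45 proteasome genes in each library minus the mean of the 9 libraries, with Carbo+COM33 libraries at the left, then Carbo and control. Red is above the gene's mean, and 35, 28 and 32 of the 45 genes are above it in Carbo+COM33 libraries 1 to 3.

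The map of deviations by library shows how the family lay in each. The median deviation over the 45 genes was 0.096, 0.044 and 0.119 in Carbo+COM33 libraries, -0.034, -0.092 and -0.006 in Carbo libraries and 0.02, -0.041 and -0.054 in control libraries, while the median over all genes was within 0.008 of 0 in each library. Above their own mean were 13, 15 and 22 genes in Carbo libraries and 27, 15 and 14 in control libraries. The libraries of Carbo+COM33 differed in which genes were high: libraries 1 and 2 had PSMA3, PSMD7 and PSMD12 high, and library 3 had PSMA6, PSMA7, PSMB7 and PSMB10 high.

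The third comparison sets Carbo against control and asks which of the genes changed with carboplatin. The unpaired edgeR test called 0 of the 45 genes and 0% of all 16450 genes; 7 proteasome genes had an unadjusted p under 0.05, against 16.7% of all genes, and DESeq2 called 0 of the 45 and 0.809% of all genes. The lowest adjusted p of the family was 0.229. The median log2 fold change was -0.024, against 0.001 over all genes, with 18 genes above 0 and 27 below, where 50.2% of all genes were above 0. In 4 genes each Carbo library exceeded each control library and in 6 each was lower, against 10.8% and 11.7% of all genes.

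Same-numbered Carbo and control libraries deviated together from their group means, though the labels name no shared batch. They were therefore treated as paired, a choice made from the same counts that were tested. The comparison was also fitted with the replicate number as a block, which takes out what libraries of 1 number share. With the block in all 9 libraries, 0 of the 45 genes and 0% of all genes were called. In the 6 libraries with the block, 14 of the 45 genes were called, 7 up and 7 down, against 22.7% of all genes called, 11.2% up and 11.5% down. The genes that fell were PSMB10, PSMC1, PSMB7, PSMA7, PSMG3, PSMC5 and PSMD4. Those that rose were PSMD5, PSME4, PSMG1, PSMA3, PSME1, PSMD12 and PSMA4. The members that fell include a catalytic core subunit, its interferon-induced counterpart PSMB10 and the ATPases PSMC1 and PSMC5. Those that rose include the activators PSME1 and PSME4. With GC and length offsets beside the block, PSMB10 and PSME4 were not called (edgeR's adjusted p = 0.102 and 0.234).

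PSMC1 had 43.7, 47.3 and 35.2 CPM in Carbo libraries 1 to 3, against 60.4, 66.1 and 57.6 CPM in control libraries 1 to 3. The groups did not overlap. The log2 ratio of Carbo over control was -0.47, -0.48 and -0.71 in the 3 pairs, and with the block the log2 fold change was -0.55 ± 0.0689 with edgeR's adjusted p = 4.52e-05. Exons of other genes cover 75.82% of its exon bases, those of NRDE2 on the other strand, and whether the counting used strand is not given in the sources used here, so reads of the 2 genes cannot be told apart. NRDE2 itself had a log2 fold change of -0.04 ± 0.0743 in the same fit, with edgeR's adjusted p = 0.738.

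PSMB7 had 197, 148 and 141 CPM in Carbo libraries, against 237, 214 and 192 CPM in control libraries. It was lower in each pair although the groups overlapped, by log2 ratios of -0.27, -0.53 and -0.45. With the block its log2 fold change was -0.41 ± 0.0535 with edgeR's adjusted p = 6.12e-05. PSMA7 (chr20:62136735-62143440, minus strand) had 255, 199.8 and 183 CPM in Carbo libraries, against 315, 262 and 229 CPM in control libraries. It too was lower in each pair while the groups overlapped, and its log2 fold change with the block was -0.34 ± 0.0454 with edgeR's adjusted p = 7.65e-05.

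PSMB10 had 5.52, 5.67 and 3.91 CPM in Carbo libraries, against 9.5, 7.39 and 6.71 CPM in control libraries. The groups did not overlap, and with the block its log2 fold change was -0.64 ± 0.161 with edgeR's adjusted p = 0.00835. AC040162.1, the gene that shares coding bases with it on the same strand, had a log2 fold change of -0.42 ± 0.26 in that fit, with edgeR's adjusted p = 0.273. PSMG3 (chr7:1567330-1571005, minus strand), a chaperone of the alpha ring, had 18.4, 16.6 and 15.3 CPM in Carbo libraries, against 21.4, 21.4 and 18.5 CPM in control libraries. Its groups did not overlap, and with the block its log2 fold change was -0.29 ± 0.0941 with edgeR's adjusted p = 0.034.

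PSMD5 had 83.0, 89.5 and 90.8 CPM in Carbo libraries, against 72.0, 72.5 and 77.6 CPM in control libraries. Each Carbo library was above each control library, and with the block its log2 fold change was 0.24 ± 0.0547 with edgeR's adjusted p = 0.00402. Against Carbo, the Carbo+COM33 libraries showed a log2 fold change of PSMD5 of 0.06 ± 0.0818, with edgeR's adjusted p = 0.718.

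**Figure D4:**
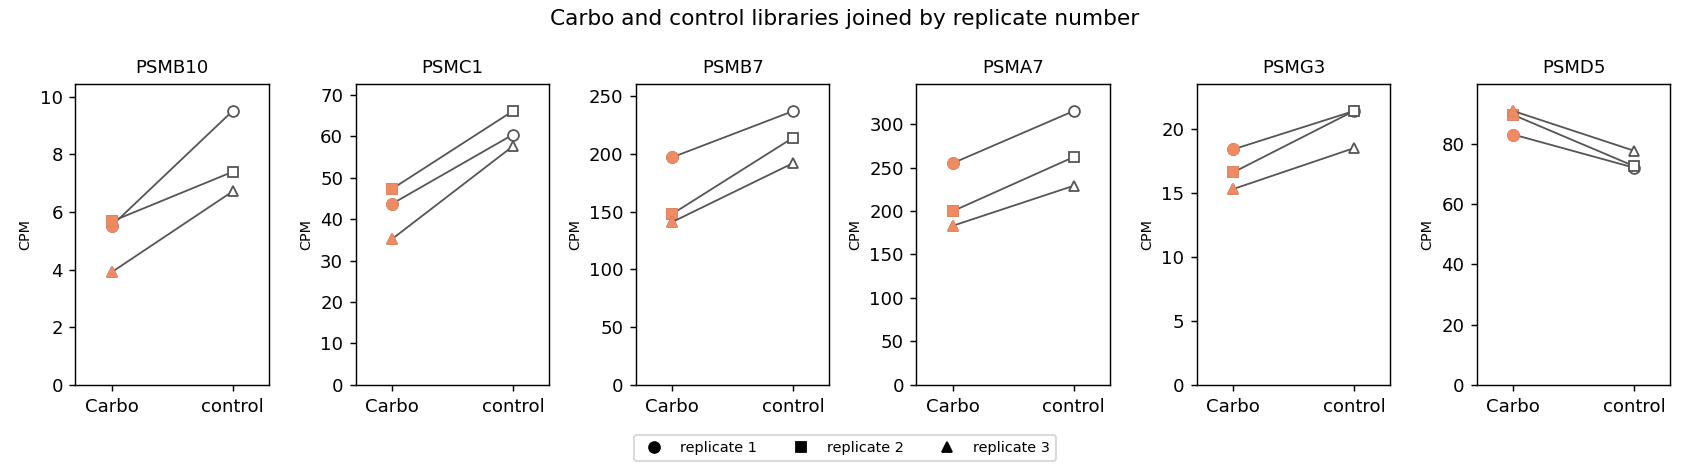
CPM of 6 proteasome genes in Carbo and control libraries, with lines joining libraries of the same replicate number. PSMB10, PSMC1, PSMB7, PSMA7 and PSMG3 are lower in Carbo in each of the 3 pairs and PSMD5 is higher in each.

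The changes in Carbo against control went with GC content. The trend with GC differed in sign between these groups, as given above, so the offsets may also take out part of a treatment effect. Across the 45 genes the fold change and the GC content of the longest transcript correlated at Pearson's r = -0.41, a description over genes that share the same 6 libraries, and at 0.21 once GC and length were fitted as offsets. The median log2 fold change was -0.08 for 17 genes over 50% GC and 0.02 for 13 genes under 42% GC. With the block and GC and length offsets together 12 genes were called, 4 up and 8 down, against 10.2% of all genes, 5.25% up and 4.94% down, and 6 of these 12 were among the 14 called with the block alone. PSMC1, PSMB7, PSMA7 and PSMC5 fell and PSME1 and PSMG1 rose in both fits. Called only with the offsets beside the block were PSMA5 (-0.24), PSMB1 (-0.22), PSMD14 (-0.26) and PSMC6 (-0.19), which fell. PSMB3 (0.2) and PSMC4 (0.2) rose and were likewise called only with the offsets. The size moved for PSMA7, with a log2 fold change of -0.19 with the offsets and -0.34 without them, and for PSME1, with 0.26 and 0.15. Calls of 8 genes were lost with the offsets. PSMB10 had a log2 fold change of -0.43 with edgeR's adjusted p = 0.102 under the block with offsets, PSMG3 -0.1 with 0.59 and PSMD5 0.11 with 0.244. PSMD4 had -0.12, PSME4 0.1, PSMA3 0.04, PSMA4 0.02 and PSMD12 -0.03, below 0 where it had been above.

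The calls with the block also depended on the pairs. Leaving out pair 1 left 14 calls, against 26.4% of all genes, pair 2 left 4, against 9.87%, and pair 3 left 12, against 17.3%. PSMB10, PSMC1, PSMB7 and PSMA7 were called in each of these. Without the block, leaving out Carbo replicate 1 gave 2 calls, PSMB7 and PSMA7, both lower, against 2.95% of all genes called lower. With no filter on low counts 4 genes were called, PSMC1, PSMA7, PSMB7 and PSMB10, all lower. This stands against 1.69% called lower of all 32378 genes, a wider base than the 16450 of the other shares.

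**Figure D5:**
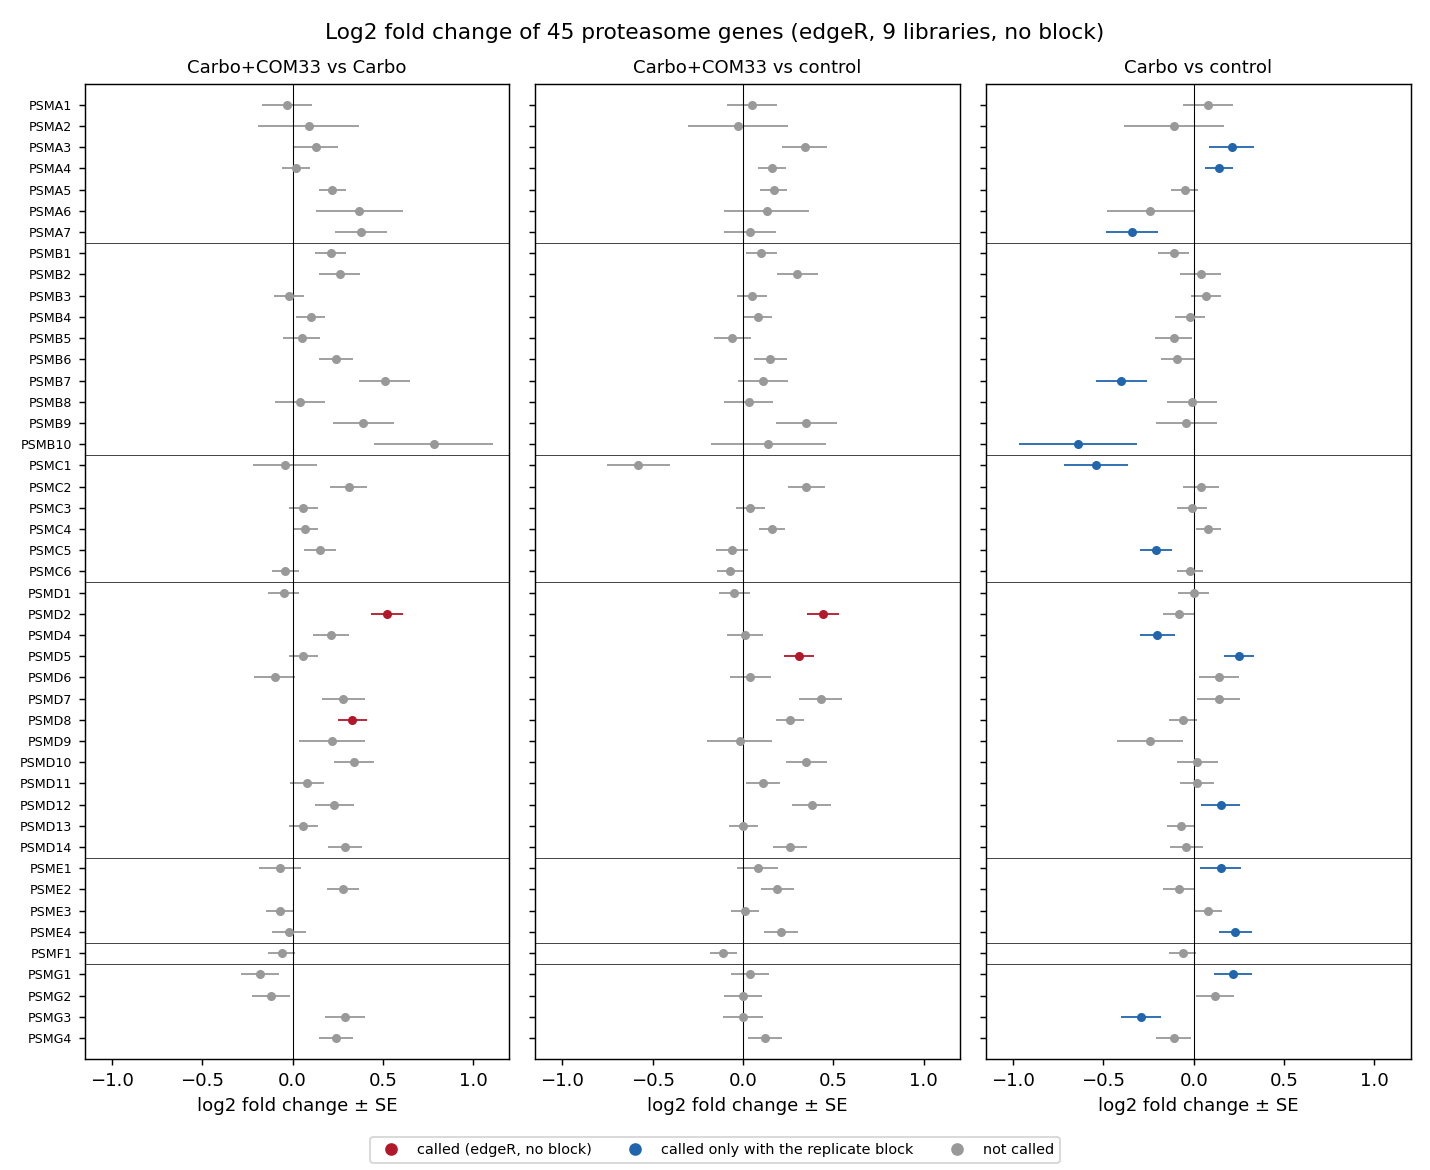
Log2 fold change ± SE of 45 proteasome genes in 3 comparisons, from the edgeR fit to 9 libraries with no block, ordered by class. PSMD2 and PSMD8 are called in Carbo+COM33 against Carbo and PSMD2 and PSMD5 in Carbo+COM33 against control. In Carbo against control 0 genes are called without the block, and 14 are called with it in the 6 libraries.

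Seen across the comparisons in the plot of fold changes, PSMD2 had log2 fold changes of 0.52 in Carbo+COM33 against Carbo, 0.44 in Carbo+COM33 against control and -0.08 in Carbo against control, the last being 0.01 with GC and length offsets. PSMB7 had 0.51, 0.11 and -0.40, where the 0.11 was -0.03 without Carbo+COM33 replicate 3, and PSMC1 had -0.04, -0.58 and -0.54. These comparisons share libraries, which ties their values to each other.

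Genes of the wider ubiquitin-proteasome pathway gave a setting for the family. Of 46 related genes, 45 were tested. In Carbo+COM33 against Carbo, 3 rose and 0 fell, where 2.43% of all genes were called up and 2.53% down. IRF1, an interferon-responsive factor that drives the interferon-induced proteasome genes, had 109, 99.8 and 106 CPM in Carbo+COM33 and 70.9, 47.7 and 41.5 CPM in Carbo libraries (log2 fold change 0.98 ± 0.17, edgeR's adjusted p = 0.00756). The 3 interferon-induced core genes were not called in this comparison: PSMB8 had a log2 fold change of 0.04 ± 0.137, PSMB9 of 0.39 ± 0.169 and PSMB10 of 0.78 ± 0.328, which was 0.22 ± 0.252 without Carbo+COM33 replicate 3. SQSTM1, an adaptor that carries ubiquitinated cargo to autophagy, rose by a log2 fold change of 0.58 ± 0.144 (edgeR's adjusted p = 0.0375), and the transcription factor FOXO3 by 0.50 ± 0.106 (edgeR's adjusted p = 0.0202). Without Carbo+COM33 replicate 3, IRF1 and FOXO3 were still called and SQSTM1 was not (edgeR's adjusted p = 0.0908).

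In Carbo+COM33 against control, IRF1 (0.64 ± 0.169), TAP2 (0.64 ± 0.139), a subunit of the peptide transporter that serves antigen presentation, and FOXO3 (0.47 ± 0.106) rose, and the small MAF protein gene MAFK (-0.74 ± 0.189) fell, with edgeR's adjusted p from 0.0209 to 0.0424. MAFK had 33.5, 34.9 and 60.5 CPM in Carbo+COM33 and 82.1, 73.9 and 59.7 CPM in control libraries, so Carbo+COM33 replicate 3 lay within the control range. Without that library the log2 fold change of MAFK was -1.07 (edgeR's adjusted p = 0.00233), and IRF1 lost its call (edgeR's adjusted p = 0.059). In Carbo against control the test without a block called 0 of the 45, with 11 at an unadjusted p under 0.05, and the block called 6 up and 13 down, where it called 11.2% of all genes up and 11.5% down. With GC and length offsets beside the block there were 1 up and 9 down, against 5.25% and 4.94% of all genes. The 6 largest changes with the block alone were MAFK (-0.59 ± 0.0704), SEM1, a small lid subunit (-0.36 ± 0.0915), IRF1 (-0.36 ± 0.0688), NFE2L2, the factor of the antioxidant response (0.33 ± 0.0475), the ubiquitin gene RPS27A (-0.31 ± 0.0495) and UCHL5, a deubiquitinase of the regulatory particle (0.31 ± 0.0664), with edgeR's adjusted p from 2.89e-05 to 0.00834. With the offsets MAFK had -0.36, SEM1 -0.58 and UCHL5 0.11, the last with edgeR's adjusted p = 0.361 and so no longer called.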

How the data were processed

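Messenger RNA of 9 SKOV3 libraries was selected with poly-T beads and sequenced as paired-end reads, per the labels. The authors deposited whole-number counts per gene and FPKM values for each library; the submitters' processing notes name the aligner HISAT2, the counter HTSeq 0.11.2, DESeq2 1.26.0 and the build GRCh38, while the strand setting is not given in the sources used here. Without it, reads of a gene and of its antisense partner cannot be told apart. The deposited FPKM is the count per exon length and library total. All 32378 identifiers and names matched GENCODE release 29.

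Counts were fitted with edgeR 4.0.16 (quasi-likelihood test, TMM factors 0.982 to 1.01, filterByExpr, 1 coefficient per group, 6 residual degrees of freedom), in R 4.3.3. The SE is the size of the log2 fold change over the square root of F. CPM are scaled by TMM. The test was tried on simulated counts with 200 changed genes. DESeq2 1.42.0 and limma 3.58.1 on log2(FPKM + 1) and log2(FPKM + 0.1) were alternatives. Figures used Python 3.11.15, pandas 2.3.3, numpy 2.4.6 and matplotlib 3.10.9.

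Deviations from group means over 6607 genes correlated at 0.824, 0.565 and 0.748 for same-numbered Carbo and control libraries, so these are treated as paired; the labels name no shared batch. The block fit in 6 libraries has 2 residual degrees of freedom. GC and length offsets are splines fitted per library.

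The members, the gene lists, the tests and the alternatives were chosen with earlier results of these data known. The genes described with all values are those called, up to 6 called with the block where libraries are paired, and otherwise the largest changes up to 4 per comparison. Of the related genes those called are named, at most 6 per comparison. The related genes cover factors that assemble or bind the proteasome, transcription factors, shuttle and segregase factors, ubiquitin and its activating enzymes, and peptide presentation.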

Additional observations from a re-analysis of the deposited data

How the results depend on the processing

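Calls here rest on 3 libraries per group, and a low count such as that of PSMB10 limits what can be seen. Of 30 fold changes of named proteasome genes that were checked, 7 changed sign under at least 1 of 21 alternatives. In Carbo against control, PSMD2 (-0.08) was 0.01 with GC and length offsets and PSMD12 (0.15) -0.02, or -0.03 with the block as well. PSMB7 in Carbo+COM33 against control (0.11) was -0.03 without Carbo+COM33 replicate 3. In Carbo+COM33 against Carbo, PSMD1 (-0.05), PSMC1 (-0.04), PSMD5 (0.06) and PSMB8 (0.04) crossed 0 in fits that leave libraries out. PSMD2 kept its call under 19 of them in Carbo+COM33 against Carbo (log2 fold change 0.47 to 0.57, adjusted p 1.33e-06 to 0.293) and under 17 in Carbo+COM33 against control (0.39 to 0.52, adjusted p 1.23e-06 to 0.322). PSMD8 lost its call under 12 of 21 (adjusted p 0.00649 to 0.806) and PSMD5 against control under 14 of 21 (adjusted p 8.56e-06 to 0.724). The causes were not tested.

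In Carbo against control 0 of 45 genes were called. There were 4 with no filter on low counts (2.87% of all genes called), 14 with the replicate block in 6 libraries (22.7%) and 0 with it in all 9 (0%). Here and below, shares with no filter are of all 32378 genes, and the other shares are of the 16450 genes that pass it. There were 12 with the block and GC and length offsets (10.2%). Counts were 0 to 2 when 1 library was left out (0% to 6.29%), and 4 to 14 with the block when 1 pair was left out (9.87% to 26.4%).

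In Carbo+COM33 against Carbo (2 calls, and 4.96% of all genes) there were 7 with no filter (5.79%), 1 with the replicate block in 6 libraries (3.05%), 6 with it in all 9 (9.45%), 1 with limma at either pseudocount (2.72% and 2.71%), 0 to 9 when 1 library was left out (0.729% to 16.5%) and 1 to 7 with the block and 1 replicate number left out (1.7% to 11.4%). There were 3 with GC and length offsets (7.64%) and 2 with the block and these offsets (6.55%). The family median of 0.126 was 0.081 with limma on log2(FPKM + 1), 0.083 on log2(FPKM + 0.1) and 0.097 to 0.17 when 1 library was left out.

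In Carbo+COM33 against control (2 calls, and 6.29% of all genes) there were 8 with DESeq2 (9.5%), 8 with no filter (5.97%), 4 with the replicate block in 6 libraries (6.86%), 9 with it in all 9 (9.88%), 5 with the block and GC and length offsets (10.6%), 1 with limma at either pseudocount (3.99% and 3.96%), 0 to 9 when 1 library was left out (0.693% to 13.4%) and 0 to 17 with the block and 1 replicate number left out (1.88% to 31.4%). The median of 0.097 was 0.054 and 0.055 with limma, 0.075 to 0.171 when 1 library was left out and up to 0.145 with the block and 1 number left out. Same-numbered Carbo+COM33 libraries correlated with Carbo at -0.015, 0.138 and -0.388 and with control at 0.0851, 0.101 and -0.42. They were therefore not treated as paired, and whether they share a culture or batch was not tested. The fits with the block and a replicate number left out were added after the data had been seen.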
